A study of Mus musculus with 8 samples.

Results

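Primary hepatocytes that lacked HO1 by genotype and carried a short hairpin RNA (shRNA) against HO2 were compared with control hepatocytes that had both heme oxygenases. The comparison was chosen by the sample titles and uses 4 of the 8 arrays of the series, namely 2 from HO1-/- cells with HO2 shRNA (the combined arrays) and 2 from HO1+/+ cells with a scrambled hairpin (the control arrays). The other 4 arrays, 2 of HO1-/- cells with scrambled shRNA (HO1 knockout) and 2 of HO1+/+ cells with HO2 shRNA (HO2 knockdown), serve below to show where the combined arrays differ from either perturbation alone, and they also enter the estimate of the spread behind every p-value. All hepatocytes came from livers of male BALB/c mice, of unstated age. Cells of all 4 groups were transduced with a lentivirus in the presence of protamine sulfate, were moved to puromycin after 24 h, and after 3 days were pulsed with 1 µM dexamethasone for 30 min, a glucocorticoid that sets cultured cells to a common circadian phase. RNA was taken 28 h after that pulse, at a single time, so levels can be compared and rhythms cannot. The series asks, by its title, about carbon monoxide metabolism and circadian transcription. HO2 was targeted with 1 hairpin sequence, and which exons the HO1-/- mice lack is not given in the sources used here. Genotype and hepatocyte preparation cannot be told apart, because every HO1-/- culture came from other mice than the HO1+/+ cultures.

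Heme oxygenases open the heme ring and release carbon monoxide, iron and biliverdin, which biliverdin reductases turn into bilirubin. HO1 is the inducible form, abundant in macrophages that recycle red cells, and HO2 is the constitutive form. Heme is also a ligand of the clock repressor REV-ERBα (Nr1d1) and the prosthetic group of the cytochrome P450 enzymes of the liver, and carbon monoxide binds heme proteins, among them soluble guanylate cyclase and the clock activator NPAS2.

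Signals are on a log2 scale, with 1 value a probe set, and a difference of 1 is a factor of 2. Of 34760 probe sets, those with 1 gene symbol gave 19937 genes. Replicate arrays correlated across genes with r = 0.9967 in control and 0.9986 in the combined group, and the median gene differed between replicates by 0.108 and 0.0674. The titles call the replicates biological without saying whether they are separate animals or cultures, so p-values measure the spread between these arrays. Albumin (Alb), the main protein hepatocytes secrete, read 13.32 and 13.40 in control and 13.92 and 13.99 in the combined arrays, near the top of the signal range, and the hepatocyte markers are described below. In bulk RNA, fewer cells of a type and less RNA per cell cannot be told apart, which holds for every cell type marker below.

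Hmox2, the gene aimed at by the hairpin, was lower in the combined arrays. It read 11.41 and 11.57 in control, 11.59 and 11.60 in HO1 knockout, 8.32 and 8.38 in HO2 knockdown, and 9.26 and 9.32 in the combined arrays. Both combined arrays lay below all 4 arrays with the scrambled hairpin and above both HO2 knockdown arrays. Against control Hmox2 fell by 2.20 (SE 0.0648, limma adjusted p = 3.17e-13), a 4.58-fold difference, and against HO2 knockdown it was 0.94 higher (adjusted p = 2.4e-08). Hmox1 read 11.46 and 11.40 in control, 11.98 and 11.97 in HO1 knockout, 11.54 and 11.57 in HO2 knockdown, and 12.40 and 12.47 in the combined arrays. The combined arrays, labelled HO1-/-, thus had the highest Hmox1 signal of the 4 groups, 2.01-fold that of control (log2 difference 1.01, SE 0.0461, adjusted p = 6.88e-11) and 0.47 above HO1 knockout (adjusted p = 1.35e-06). Neither the deleted exons nor the part of the gene that this probe set reads is given in the sources used here. This signal therefore cannot check the genotype, and every statement on HO1 rests on the label.

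The biliverdin reductase genes moved in opposite directions. Blvra, which encodes the reductase for the main bilirubin isomer, read 8.40 and 8.47 in control and 9.01 and 8.93 in the combined arrays and rose by 0.53 (SE 0.0778, adjusted p = 5.72e-05). Blvrb, a reductase that also acts on flavins, read 11.62 and 11.66 in control and 10.87 and 10.89 in the combined arrays and fell by 0.76 (SE 0.0515, adjusted p = 9.79e-09). For Blvra the HO1 knockout arrays (9.11 and 9.10) stood with the combined arrays, which did not differ from them past the threshold (-0.14, adjusted p = 0.254). Blvrb was lowest in the combined arrays, with a difference of -0.42 from HO1 knockout (adjusted p = 1.3e-05) and -0.15 from HO2 knockdown (adjusted p = 0.0374).

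**Figure D1:**
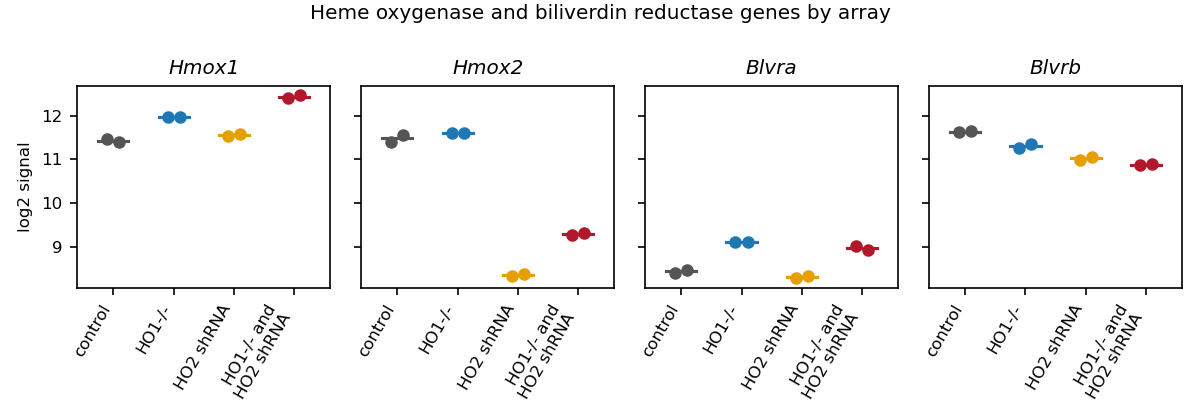
Log2 signal (vertical axis) of Hmox1, Hmox2, Blvra and Blvrb in each of the 8 arrays, by group (horizontal axis), with points for arrays and short lines for group means. Hmox2 is low in both groups with HO2 shRNA, and Hmox1 is highest in the combined arrays at 12.40 and 12.47.

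Across all genes, 5964 of 19937 (29.9%) passed the threshold between the combined and control arrays, a limma p adjusted over all genes under 0.05 with no minimum fold. Of these, 2316 rose (11.6% of genes tested) and 3648 fell (18.3%), and at 2-fold or more 425 rose (2.13%) and 177 fell (0.888%). The counts of gene lists below are to be read against 11.6% higher and 18.3% lower, and list medians against the median of all genes, -0.02. In HO1 knockout against control 5.62% of genes were higher and 7.2% lower, and in HO2 knockdown against control 33.2% were called, 16.5% higher and 16.7% lower. These comparisons share the control arrays with the combined comparison, and their values are given side by side only. Because most genes had arrays of the 2 groups that did not overlap (57.8%, with 23.6% higher and 34.2% lower), a lack of overlap by itself is common here.

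**Figure D2:**
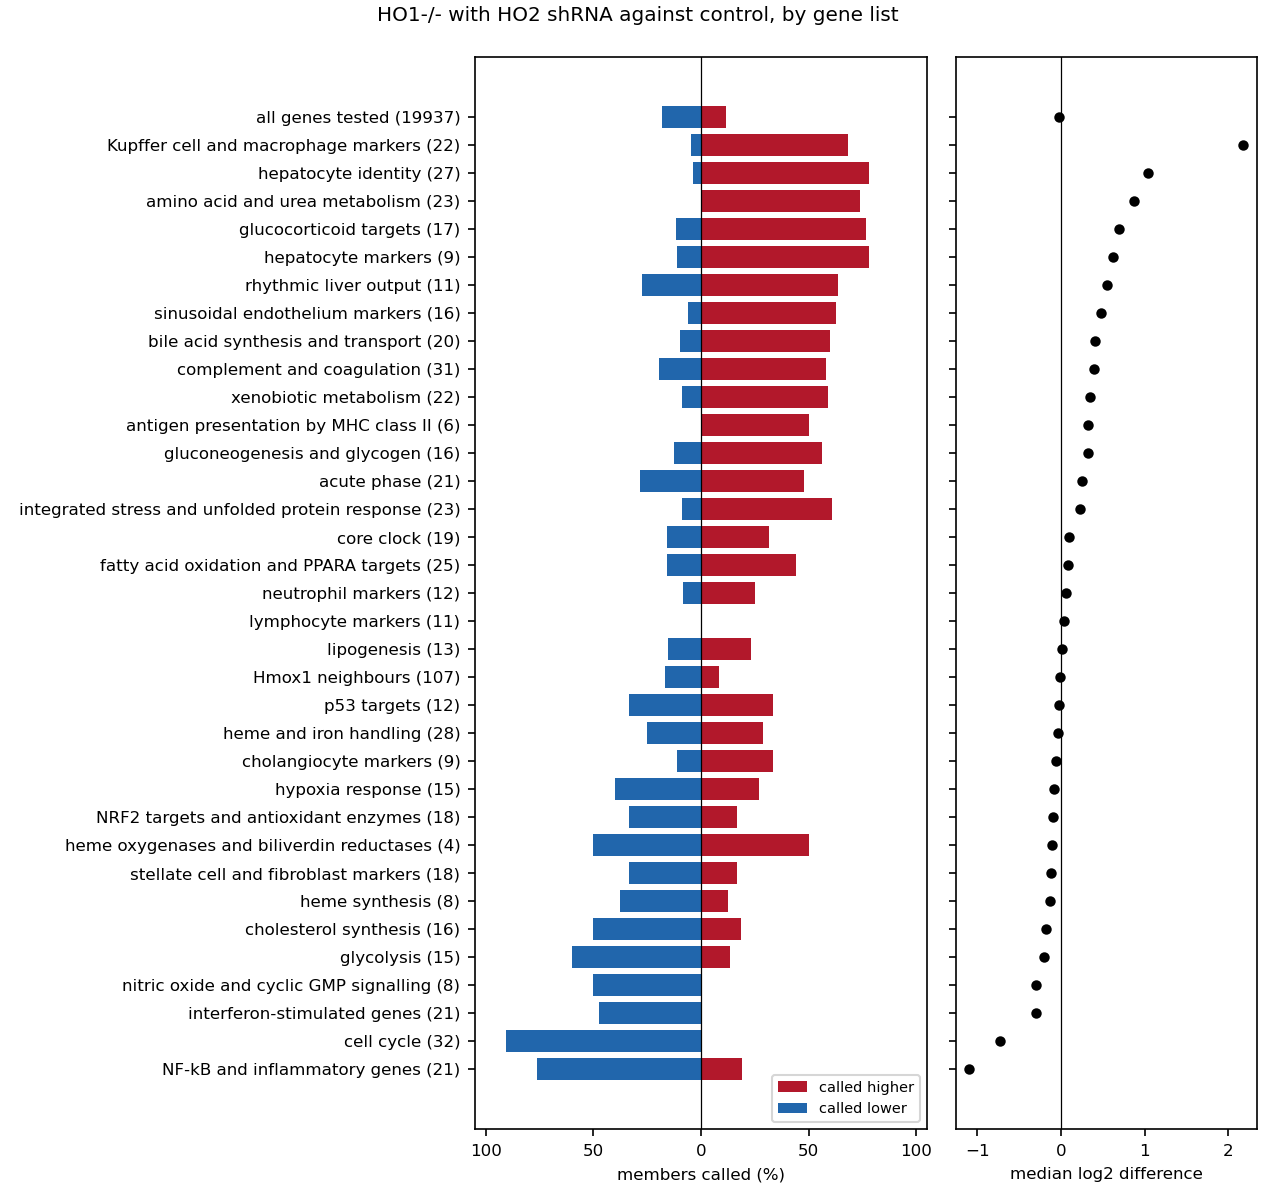
Left, share of each list's measured members called higher (red, right of 0) or lower (blue, left of 0) in the combined against the control arrays, in percent, with the number measured in brackets. Right, median log2 difference of the members. Macrophage markers have the highest median (2.18) and NF-kB and inflammatory genes the lowest (-1.10), beside -0.02 for all genes tested.

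The largest rises were in genes of macrophages. Pla2g7, which encodes the plasma form of platelet-activating factor acetylhydrolase, read 6.95 and 7.38 in control and 11.87 and 12.03 in the combined arrays, a 27.6-fold difference (log2 4.78, SE 0.108, adjusted p = 1.33e-14). Lyz2, the lysozyme of macrophages and neutrophils, read 8.62 and 8.81 in control and 13.34 and 13.42 in the combined arrays (log2 4.66, SE 0.08, adjusted p = 1.37e-15). Next to them stood Ly86 (4.75), whose product partners a Toll-like receptor homologue, Ms4a6c (4.74) and Ms4a6d (4.13) of the membrane-spanning 4A family, the lysosomal protease gene Ctss (4.30), the surface receptor gene Cd93 (4.21), the complement genes C1qb (4.19) and C1qc (4.06), the RNA sensor gene Tlr7 (4.06), the complement receptor gene C3ar1 (3.96), the Fc receptor chain gene Fcer1g (3.94), and Laptm5 (3.93) and Cd53 (3.90), both leukocyte membrane genes. Of the 15 largest rises, 1 was not a leukocyte gene. Bhmt, the liver enzyme that remethylates homocysteine with betaine, read 7.72 and 7.33 in control and 11.93 and 11.71 in the combined arrays (log2 4.29, SE 0.137, adjusted p = 7.45e-13). The HO1 knockout arrays shared the macrophage values, with Lyz2 at 13.26 and 13.25 and no difference from the combined arrays past the threshold (0.13, adjusted p = 0.314). For Bhmt it was the HO2 knockdown arrays that stood with the combined ones, at 11.88 and 11.73 (0.02, adjusted p = 0.928).

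Of 22 Kupffer cell and macrophage markers, 15 rose, 1 fell and 6 missed the threshold, with a median log2 difference of 2.18. In HO1 knockout against control 16 were higher and 1 lower (median 2.30), and in HO2 knockdown 0 higher and 5 lower (median -0.11). Besides the genes above, Tyrobp, the adaptor of myeloid receptors, rose by 3.71, Adgre1, which encodes F4/80, by 3.36, Csf1r, the receptor that macrophages need for survival, by 2.92, and Cd68 by 2.46. The summed linear signal of the 22 markers was 9339 to 9748 in control, 45790 to 46520 in HO1 knockout, 7956 to 8292 in HO2 knockdown and 44630 to 47610 in the combined arrays. Of the markers of resident Kupffer cells, Cd5l, a secreted scavenger receptor protein, rose from 6.30 and 5.93 to 7.06 and 6.83 (0.83, adjusted p = 0.000201), and others missed the threshold. Clec4f read 7.52 and 7.27 in control and 7.73 and 7.44 in the combined arrays (0.18, adjusted p = 0.287), Timd4 differed by 0.20 (adjusted p = 0.22), Vsig4 by 0.28 (adjusted p = 0.135), Marco by 0.01 (adjusted p = 0.981) and Cd163, the hemoglobin scavenger receptor, by 0.08 (adjusted p = 0.679). Cd14, the lipopolysaccharide co-receptor, fell by 0.39 (adjusted p = 2.21e-05). Ccr2, of blood monocytes, differed by 0.22 without passing the test.

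Within the macrophage genes the combined and HO1 knockout arrays were not alike throughout. Against HO1 knockout, 5 of the 22 markers were higher and 6 lower in the combined arrays, beside 10.2% and 12.8% of all genes. Adgre1 read 11.19 and 11.21 in HO1 knockout and 9.80 and 10.02 in the combined arrays (-1.29, adjusted p = 1.18e-07), and Ms4a7 9.20 and 9.05 against 6.68 and 6.90 (-2.34, adjusted p = 8.58e-10). C1qb read 11.80 and 11.82 in HO1 knockout and 12.17 and 12.25 in the combined arrays (0.40, adjusted p = 0.0014). Clec7a, the β-glucan receptor dectin-1, read 8.94 and 8.84 against 10.27 and 10.41 (1.45, adjusted p = 1.89e-08), with 7.17 and 6.93 in control. Vsig4, which was below control in HO1 knockout (-1.07), was 1.35 higher in the combined arrays than there (adjusted p = 9.85e-07).

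Antigen presentation by MHC class II also stood higher in the combined arrays for some members. Cd74, the invariant chain that guards class II molecules on their way to the surface, read 6.73 and 6.05 in control, 7.72 and 7.64 in HO1 knockout, 6.59 and 6.44 in HO2 knockdown, and 9.35 and 9.49 in the combined arrays. It rose by 3.03 against control (SE 0.159, adjusted p = 3.87e-10) and was 1.75 above HO1 knockout (adjusted p = 5.24e-07). H2-Aa, a class II chain, read 6.01 and 5.80 in control and 7.49 and 7.30 in the combined arrays (1.49, adjusted p = 4.57e-08). Of 6 members measured, 3 rose and 0 fell, the third being H2-DMa (0.43), while H2-Eb1 (0.23), the class II master regulator Ciita (0.17) and H2-Ab1 (0.09) did not pass the test.

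Markers of other non-parenchymal cells differed less. Of 16 markers of sinusoidal endothelium, 10 rose and 1 fell (median 0.48), led by the inhibitory Fc receptor gene Fcgr2b (2.60), the scavenger receptor gene Stab1 (2.27), the hyaluronan receptor gene Lyve1 (1.91), Emcn (1.86) and Cdh5, the cadherin of endothelial junctions (1.58). Cdh5 read 6.90 and 7.10 in control, 7.63 and 7.65 in HO1 knockout, 8.17 and 8.18 in HO2 knockdown, and 8.49 and 8.69 in the combined arrays, which lay above all others. The summed endothelial signal was 4119 to 4243 in control, 6430 to 6565 in HO1 knockout, 4642 to 4757 in HO2 knockdown and 6828 to 7198 in the combined arrays. Fcgr2b and Stab1 are also expressed by macrophages.

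Of 12 neutrophil markers, 3 rose and 1 fell (median 0.06). Mmp8, a collagenase gene, had the largest of the 3 rises, with 6.77 and 6.72 in control and 10.18 and 10.16 in the combined arrays (3.42, adjusted p = 5.06e-13). Mmp9 fell by 0.54, and the granule genes Elane (-0.04), Mpo (-0.20), Ltf (-0.15) and Camp (0.05) were among those that did not pass the test. Of 11 lymphocyte markers 0 were called in either direction by limma, and 0 at an unadjusted p under 0.05 (median 0.03, and -0.02 after a further quantile normalization). With control replicate 1 left out 4 of them were called higher, and with control replicate 2 left out 1 was called lower. Of 18 stellate cell and fibroblast markers, 3 rose and 6 fell (median -0.12). Timp1, an inhibitor of matrix proteases (-1.30), the proteoglycan gene Dcn (-1.28) and the pericyte gene Rgs5 (-0.98) fell most, while Reln rose by 1.21 and Acta2, the smooth muscle actin of activated stellate cells, by 0.84. Of 9 cholangiocyte markers 3 rose and 1 fell (median -0.06), with 2 falls when control replicate 2 was left out. The keratin gene Krt7 rose by 1.33, and the transcription factor gene Sox9 fell by 0.76. Summed signals of these 4 lists in control and combined arrays were 2470 to 2551 and 3105 to 3118 for neutrophils, 1022 to 1257 and 1148 to 1159 for lymphocytes, 29720 to 29780 and 28900 to 29110 for stellate cells, and 13330 to 13580 and 14770 to 14890 for cholangiocytes. In HO1 knockout and HO2 knockdown they were 4882 to 5079 and 1330 to 1343 for neutrophils, and 1074 to 1228 and 1013 to 1050 for lymphocytes. For stellate cells they were 26140 to 26780 and 28830 to 29580, and for cholangiocytes 13510 to 13560 and 14820 to 14900. Whether the share of such cells in the cultures has a part in the results below was not tested.

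**Figure D3:**
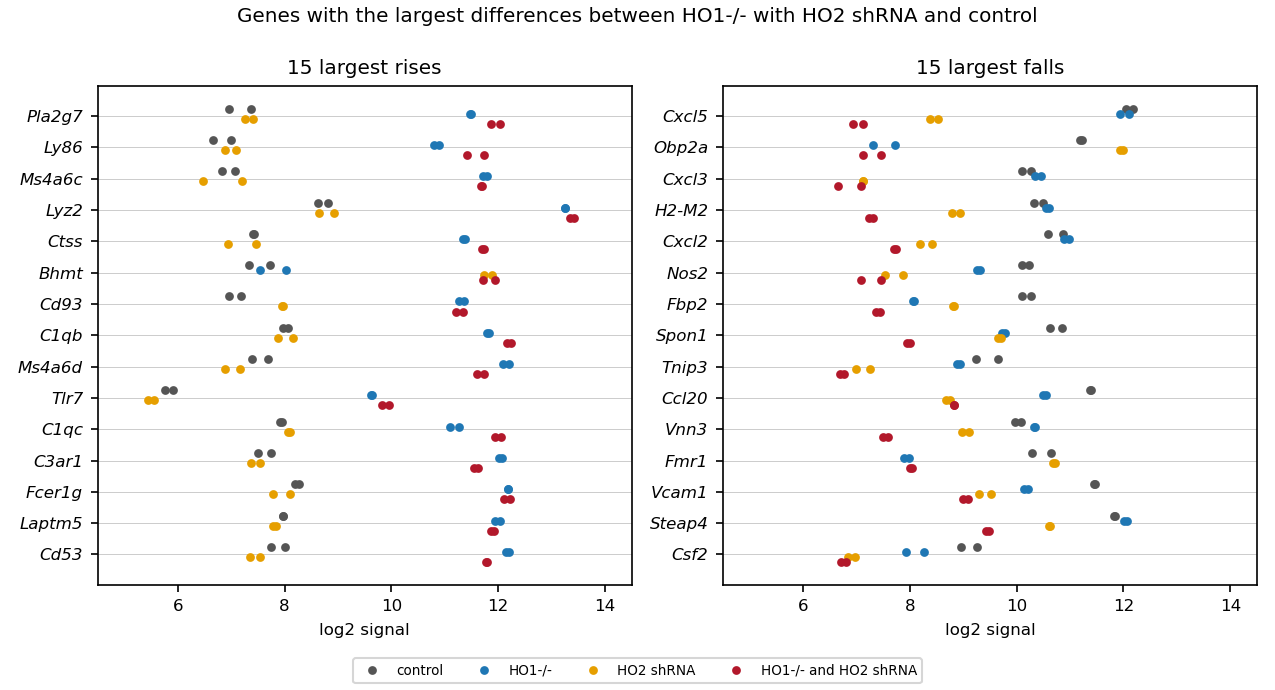
Log2 signal (horizontal axis) in each of the 8 arrays for the 15 genes with the largest rise (left) and the 15 with the largest fall (right) in the combined against the control arrays, coloured by group. On the left HO1 knockout arrays lie near the combined arrays for all genes but Bhmt, and on the right HO2 knockdown arrays lie nearer to the combined arrays than to control for most chemokine genes, such as Cxcl3 at 7.13 and 7.12.

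Genes of differentiated hepatocytes rose together. Of 27 genes of hepatocyte identity measured, 21 rose, 1 fell and 5 missed the threshold, with a median of 1.04. In HO1 knockout 14 were higher and 1 lower than control (median 0.20), in HO2 knockdown 23 and 1 (median 0.84). Plg, the plasma zymogen plasminogen, read 7.61 and 7.46 in control, 8.16 and 8.37 in HO1 knockout, 10.88 and 11.002 in HO2 knockdown, and 11.46 and 11.41 in the combined arrays, a 14.9-fold difference from control (log2 3.90, SE 0.0835, adjusted p = 8.47e-15). The combined arrays were the highest of the 4 groups, 0.50 above HO2 knockdown (adjusted p = 0.000307). Among the other plasma protein genes, histidine-rich glycoprotein (Hrg) rose by 3.43, Apoa2 by 3.17, vitronectin (Vtn) by 2.91 and Apoa1, the main protein of high-density lipoprotein, by 2.66. Apob, the scaffold of very low-density lipoprotein, fell by 0.30. Of 7 hepatocyte transcription factor genes 4 rose, namely Onecut1 (1.72), Foxa3 (1.16), Hnf4a (0.62) and Cebpa (0.41), and Foxa1 (0.05), Foxa2 (0.10) and the bile acid receptor gene Nr1h4 (-0.09) did not pass the test. The summed signal of the 9 hepatocyte markers, 7 of which rose and 1 of which fell, was 41220 to 42230 in control, 46390 to 47510 in HO1 knockout, 76210 to 79380 in HO2 knockdown and 80420 to 81840 in the combined arrays.

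Amino acid breakdown and the urea cycle followed the same direction, with 17 of 23 genes higher and 0 lower by limma (19 and 0 at an unadjusted p under 0.05, median 0.88). Cps1, which feeds ammonia into the urea cycle, read 10.17 and 10.36 in control and 13.32 and 13.36 in the combined arrays (3.07, SE 0.0622, adjusted p = 5.63e-15). The arrays of HO2 knockdown (13.27 and 13.24) were near the combined ones, and those of HO1 knockout (10.95 and 11.11) nearer to control. Tat, which starts tyrosine breakdown, rose by 2.46, the next enzyme of that path, Hpd, by 2.66, the histidine ammonia-lyase gene Hal by 2.27, and Hgd by 1.67. Of 5 genes of the methionine cycle and transsulfuration 4 rose, among them Cbs (1.42), Mat1a (1.29) and Cth (1.07).

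Arg1, the arginase that completes the urea cycle and is also made by macrophages, stood apart. It read 7.73 and 7.30 in control, 11.39 and 11.19 in HO1 knockout, 9.14 and 9.05 in HO2 knockdown, and 9.80 and 9.81 in the combined arrays. The combined arrays were 2.29 above control (SE 0.11, adjusted p = 1.32e-10) and below HO1 knockout (-1.48, adjusted p = 5.34e-08).

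In glucose metabolism, genes that release glucose were higher and several of glycolysis lower. Of 16 genes of gluconeogenesis and glycogen, 9 rose and 2 fell (median 0.32, with 1 lower when control replicate 2 or combined replicate 2 was left out). G6pc, the phosphatase that frees glucose, read 7.23 and 7.01 in control, 7.48 and 7.08 in HO1 knockout, 10.27 and 10.05 in HO2 knockdown, and 10.85 and 10.72 in the combined arrays (against control 3.66, SE 0.12, adjusted p = 1.09e-12). Both groups with the HO2 hairpin lay apart from both without it, and the combined arrays were 0.62 above HO2 knockdown (adjusted p = 0.001). The glucose transporter gene Slc2a2 rose by 2.40, Pck1, the cytosolic entry step of gluconeogenesis, by 1.76, and the glucose-6-phosphate transporter gene Slc37a4 by 1.29, while Fbp1 fell by 1.03. Fbp2, the muscle form of fructose bisphosphatase, was among the 15 largest falls, with 10.09 and 10.27 in control and 7.45 and 7.36 in the combined arrays (-2.78, adjusted p = 4.17e-13). Of 15 glycolysis genes 2 rose and 9 fell (median -0.20), with the phosphofructokinase gene Pfkl (-0.75), the liver pyruvate kinase gene Pklr (-0.68), the lactate exporter gene Slc16a3 (-0.62) and hexokinase 2, Hk2 (-0.54), falling most. Rises in this list numbered 1 without combined replicate 1.

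Bile acid genes, 20 in number, counted 12 rises and 2 falls (median 0.40). Cyp7a1, the rate-limiting enzyme of bile acid synthesis, read 5.50 and 5.38 in control, 5.45 and 5.44 in HO1 knockout, 6.03 and 6.13 in HO2 knockdown, and 7.23 and 7.06 in the combined arrays. It rose by 1.70 (SE 0.0993, adjusted p = 1.49e-09) and exceeded HO1 knockout by 1.70 (adjusted p = 3.77e-09) and HO2 knockdown by 1.06 (adjusted p = 9.28e-07). The bile acid importer gene Slc10a1 rose by 2.26, the sterol exporter genes Abcg5 and Abcg8 by 1.94 and 1.16, and Nr0b2, the repressor SHP that bile acids induce, by 1.54. Cyp7b1 (-0.65) and Hsd3b7 (-0.61) fell. Of 22 genes of xenobiotic metabolism 13 rose and 2 fell (median 0.35, with 1 lower when any 1 control or combined array was left out). Cytochrome P450 enzymes carry heme, and the transcripts on this list differed widely. Cyp3a11 read 5.44 and 5.56 in control and 8.96 and 9.32 in the combined arrays (3.64, SE 0.143, adjusted p = 9.4e-12), Cyp2b10 rose by 2.75 and Cyp1a2 by 1.78, and Cyp1b1, a form found mainly outside hepatocytes, fell by 1.73. The xenobiotic receptor genes Nr1i2 (PXR, 0.92) and Nr1i3 (CAR, 0.38) rose.

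Of the 15 largest falls, 4 were in chemokine genes of the NF-kB list, namely Cxcl5, Cxcl3, Cxcl2 and Ccl20, and 2 in other genes of that list, Nos2 and Vcam1. Cxcl5, a neutrophil attractant, read 12.05 and 12.17 in control, 11.94 and 12.11 in HO1 knockout, 8.38 and 8.53 in HO2 knockdown, and 7.12 and 6.93 in the combined arrays. It was 34.0-fold lower than control in the combined arrays (log2 difference -5.09, SE 0.0826, adjusted p = 8.01e-16), and lower than HO2 knockdown (-1.43, adjusted p = 2.59e-09). The others that fell were Cxcl3 (-3.32), Cxcl2 (-3.01), Ccl20, which attracts CCR6-bearing lymphocytes and dendritic cells (-2.55), Ccl7 (-2.12), Cxcl1 (-1.80) and Ccl2, the main monocyte attractant (-1.16). The 7 chemokine genes of the NF-kB list all fell, with a median of -2.55. In HO2 knockdown these 7 were also lower than control (median -2.43), and in HO1 knockout 0 were higher and 2 lower (median -0.02). Against HO2 knockdown 4 of the 7 were lower in the combined arrays and 0 higher, beside 21.0% and 13% of all genes.

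Of the 21 genes on the whole list of NF-kB and inflammatory genes, 16 fell, 4 rose and 1 missed the threshold (median -1.10, with 2 called higher when control replicate 2 was left out). NF-kB is a transcription factor that inflammatory signals release into the nucleus, where it also induces its own inhibitors. Nos2, the inducible nitric oxide synthase, read 10.10 and 10.24 in control, 9.32 and 9.26 in HO1 knockout, 7.54 and 7.87 in HO2 knockdown, and 7.45 and 7.09 in the combined arrays (against control -2.90, SE 0.121, adjusted p = 2.06e-11). The adhesion molecule gene Vcam1 fell (-2.43), and so did all 5 measured genes of NF-kB subunits and feedback inhibitors, led by Tnfaip3 (-1.10), Nfkbiz (-0.72) and Nfkbia (-0.53). Tnip3, another inhibitor of the pathway, fell by 2.71. The 5 cytokine genes on this list were mixed, since Il1a rose by 1.28, Tnf by 0.39 and the antagonist gene Il1rn by 0.21, Il1b did not pass the test (0.04), and Il6 fell by 1.15. Il1a read 7.08 and 7.73 in control, 10.14 and 10.00 in HO1 knockout, 5.93 and 6.01 in HO2 knockdown, and 8.81 and 8.57 in the combined arrays, which lay between the 2 singly perturbed groups.

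The chemokine genes Cxcl1, Cxcl2 and Cxcl3 lie near each other on chromosome 5 and are shown with their promoters, since all 3 fell and all 3 windows hold the NF-kB motif GGGANTTTCC (N is any base, both strands searched). Windows run from 250 bases before to 50 after an annotated start of the gene, on RefSeq annotation of GRCm38.p6, and capitals mark the match. Cxcl1 is at chr5:90890995-90891294, plus strand, with the match starting at position -71 from the start.
Cxcl1: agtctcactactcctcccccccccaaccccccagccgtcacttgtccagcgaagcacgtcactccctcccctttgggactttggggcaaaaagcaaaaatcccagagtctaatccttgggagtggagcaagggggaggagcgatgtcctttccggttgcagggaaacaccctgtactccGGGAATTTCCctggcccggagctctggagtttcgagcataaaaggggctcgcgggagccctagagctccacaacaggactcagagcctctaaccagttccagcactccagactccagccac
Cxcl2 is at chr5:90903649-90903948, plus strand, with the match starting at position -97.
Cxcl2: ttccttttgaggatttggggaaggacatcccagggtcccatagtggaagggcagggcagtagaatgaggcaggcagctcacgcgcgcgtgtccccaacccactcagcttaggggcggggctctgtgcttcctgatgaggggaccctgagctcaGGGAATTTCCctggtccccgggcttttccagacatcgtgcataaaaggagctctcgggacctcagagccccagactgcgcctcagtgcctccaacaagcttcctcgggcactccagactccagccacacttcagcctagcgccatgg
Cxcl3 is at chr5:90785851-90786150, plus strand, with the match starting at position -73.
Cxcl3: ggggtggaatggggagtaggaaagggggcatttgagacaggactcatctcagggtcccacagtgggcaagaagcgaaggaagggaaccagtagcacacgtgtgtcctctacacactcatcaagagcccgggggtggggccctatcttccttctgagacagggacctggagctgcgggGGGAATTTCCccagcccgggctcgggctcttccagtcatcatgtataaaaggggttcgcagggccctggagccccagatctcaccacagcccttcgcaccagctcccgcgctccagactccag
All 3 matches read GGGAATTTCC. Among all 32851 windows 135 hold the motif (0.411%), and 126 of 27025 genes have it in a window (0.466%). Of the 21 genes on the NF-kB list, 14 had a window, and the motif was in 6, the others being Il6, Nfkb2 and Nfkbia. A match is a description of these letters and not a test of binding. Across these 3 genes the log2 signals in the combined arrays were 10.03 and 9.91 for Cxcl1, 7.71 and 7.74 for Cxcl2, and 7.09 and 6.65 for Cxcl3, against 11.84 and 11.70, 10.59 and 10.87, and 10.10 and 10.27 in control. Each gene's combined arrays lay below its control arrays by more than the spread between replicates.

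The other large falls were in genes of several kinds. Obp2a, a lipocalin gene, read 11.18 and 11.22 in control, 7.73 and 7.30 in HO1 knockout, 11.99 and 11.93 in HO2 knockdown, and 7.47 and 7.13 in the combined arrays (against control -3.91, SE 0.118, adjusted p = 4.07e-13). Fmr1, which encodes the RNA-binding protein FMRP, read 10.29 and 10.64 in control, 7.98 and 7.88 in HO1 knockout, and 8.04 and 8.00 in the combined arrays (-2.44, adjusted p = 8.16e-12). For both genes the groups divided by HO1 genotype, and the combined arrays did not differ from HO1 knockout past the threshold (adjusted p = 0.23 and 0.599). Further falls were in H2-M2, a nonclassical class I gene (-3.14), the matrix protein gene Spon1 (-2.76), the pantetheinase gene Vnn3 (-2.48), the metalloreductase gene Steap4 (-2.38) and the cytokine gene Csf2 (-2.36).

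Cell cycle genes were lower nearly throughout. Of 32 measured, 29 fell and 0 rose by limma (30 and 0 at an unadjusted p under 0.05), with a median of -0.73. In HO2 knockdown all 32 were lower than control (median -1.02), and in HO1 knockout 3 were higher and 3 lower (median -0.04). Bub1, of the spindle checkpoint, read 9.47 and 9.73 in control, 9.46 and 9.48 in HO1 knockout, 7.92 and 7.85 in HO2 knockdown, and 8.12 and 8.30 in the combined arrays (against control -1.39, SE 0.0934, adjusted p = 8.41e-09). Rrm2, the ribonucleotide reductase subunit that limits the supply of DNA building blocks (-1.22), the mitotic activator gene Cdc20 (-1.14) and the mitotic kinase gene Cdk1 (-0.88) fell too. All 16 genes of mitosis and 13 of 16 of S phase fell, and Cdt1 (-0.14), E2f8 (-0.11) and Cdc6 (-0.26) did not pass the test. The fall was smaller than with the HO2 hairpin alone, since 21 of the 32 were higher in the combined arrays than in HO2 knockdown and 1 lower (median 0.31), beside 13% and 21.0% of all genes. Mki67, the proliferation marker Ki-67, showed this most plainly, with 10.39 and 10.47 in control, 9.02 and 8.93 in HO2 knockdown and 10.00 and 10.03 in the combined arrays. There Mki67 differed from control by -0.42 (adjusted p = 6.87e-05) and was 1.04 above HO2 knockdown (adjusted p = 4.17e-09).

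Whether the joint change differed from the sum of the single ones was tested with an interaction term, the combined minus both single groups plus control. Hmox2 itself was 0.94 higher in the combined arrays than in HO2 knockdown, so its signal was not equally low in both groups with the hairpin. Whether this has a part in the interaction, or in other differences from HO2 knockdown, was not tested. Of 19937 genes 2442 passed (12.2%), 932 with a joint change above the sum (4.67%) and 1510 below it (7.57%). The control group enters this test and had the widest replicate spread of the 4 groups, and 4744 genes passed when control replicate 2 was left out, 52.6% of them above the sum, against 38.2% with all arrays and 27.1% with arrays centred on their medians. Centring also moved the share of higher calls against HO2 knockdown, from 38.2% to 24.1%. Directions of single lists below are given with their range over the arrays left out where it moved by more than 1.5 times.

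Acute phase genes were the clearest case below the sum. These encode liver proteins that inflammation raises or lowers in plasma. Of 21 measured, 10 rose and 6 fell in the combined against the control arrays (median 0.25), while in HO1 knockout 17 were higher and 0 lower (median 1.02) and in HO2 knockdown 10 higher and 4 lower (median 0.11). For 18 of 21 the joint change was below the sum and for 0 above it (17 to 18 with any 1 array left out). Orm2, an acid glycoprotein gene, read 8.96 and 9.02 in control, 10.84 and 10.87 in HO1 knockout, 7.92 and 8.07 in HO2 knockdown, and 8.09 and 8.11 in the combined arrays. The combined arrays stood with HO2 knockdown, and Orm2 differed there from control by -0.89 (adjusted p = 1.64e-07) and from HO1 knockout by -2.76 (adjusted p = 7.54e-13). Of the serum amyloid genes, Saa3 (-2.17), Saa4 (-1.12) and Saa2 (-0.73) fell against control, and Saa1 did not pass the test (-0.18). Saa4 was lowest in the combined arrays, at 9.53 and 9.58 against 10.72 and 10.73 in HO2 knockdown and 10.59 and 10.77 in control.

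The fibrinogen and inter-alpha-trypsin inhibitor genes on this list rose in all 3 comparisons. Fgg, the fibrinogen γ chain, read 8.80 and 9.04 in control, 11.20 and 11.35 in HO1 knockout, 11.84 and 11.87 in HO2 knockdown, and 12.08 and 12.13 in the combined arrays. It was 3.19 above control in the combined arrays (SE 0.0709, adjusted p = 1.17e-14), where the single changes of 2.35 and 2.93 would sum to more (interaction -2.10, adjusted p = 7.48e-09). Itih3 rose by 3.26, Itih4 by 2.98, Fga by 1.44 and Fgb by 1.16. On the wider list of complement and coagulation, 18 of 31 genes rose and 6 fell (median 0.40). Of 18 coagulation and fibrinolysis genes 14 rose, among them the plasmin inhibitor gene Serpinf2 (3.08), F12 (1.91) and F10 (1.43), and of 13 complement genes 4 rose and 3 fell. Mbl2, a lectin that starts complement activation, read 10.72 and 10.73 in control, 9.61 and 9.57 in HO1 knockout, 9.68 and 9.72 in HO2 knockdown, and 8.60 and 8.64 in the combined arrays (-2.11, SE 0.0631, adjusted p = 3.75e-13), lower than in each other group.

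Interferon-stimulated genes, which encode antiviral effectors, were the clearest case above the sum. Against control 10 of 21 fell and 0 rose by limma in the combined arrays (11 and 0 at an unadjusted p under 0.05, median -0.30), with 6 lower and 3 higher when control replicate 2 was left out and 6 lower when combined replicate 2 was. In each single perturbation 16 were lower than control and 0 higher (medians -0.50 and -0.46), and for 15 of 21 the joint change was above the sum and for 0 below it. The median signal of the list was 9.99 and 10.57 in control and 9.51 and 9.62 in HO1 knockout. It was 9.90 and 9.89 in HO2 knockdown, and 10.09 and 9.93 in the combined arrays. Control replicate 2 was thus the highest array, and the counts for the single perturbations and the count above the sum include it. Ifit3, an inhibitor of viral RNA translation, read 10.03 and 10.71 in control, 8.99 and 9.46 in HO1 knockout, 9.91 and 9.89 in HO2 knockdown, and 10.49 and 10.38 in the combined arrays. The combined arrays lay within the control pair (0.06, adjusted p = 0.846) and 1.21 above HO1 knockout (adjusted p = 3.35e-05), with an interaction of 1.67 (adjusted p = 0.000206). Control replicate 2 was the higher of its pair for Ifit3, and without it Ifit3 was 0.40 higher in the combined arrays (adjusted p = 0.0279). Oasl2, of the oligoadenylate synthetase family, differed from control by -0.02 (adjusted p = 0.942) and was above HO1 knockout by 0.75 and above HO2 knockdown by 0.80. The interferon-induced chemokine gene Cxcl10 stayed low, with 9.81 and 10.21 in control and 8.58 and 8.95 in the combined arrays (-1.25, adjusted p = 7.41e-07).

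PPARA is the receptor that switches on fat burning in the fasted liver. On the list of fatty acid oxidation and PPARA targets, 10 of 25 genes were below the sum of single changes and 0 above it. The counts were 6 below without either HO1 knockout array, 5 below without HO2 knockdown replicate 1, and 1 above without control replicate 2. By role, those below were 5 of 6 genes of peroxisomal and microsomal oxidation and 3 of 5 of lipid binding and hydrolysis. In mitochondrial oxidation and ketogenesis it was 1 of 10, and among regulators 1 of 4. Against control 11 rose and 4 fell (median 0.09), where HO2 knockdown had 18 higher and 0 lower (median 0.53) and HO1 knockout 1 and 7 (median -0.13). All but 3 of the 25 were lower in the combined arrays than in HO2 knockdown, 22 with a median difference of -0.36 over the list, beside 21.0% of all genes. Cyp4a10, a fatty acid hydroxylase that PPARA induces, read 6.46 and 6.31 in control, 6.51 and 6.14 in HO1 knockout, 9.10 and 9.06 in HO2 knockdown, and 7.47 and 7.60 in the combined arrays. The rise of 1.15 over control (SE 0.12, adjusted p = 1.48e-06) left it below HO2 knockdown (-1.54, adjusted p = 1.03e-07). Fabp1, the fatty acid binding protein of hepatocytes, rose by 1.69 and lay below HO2 knockdown (-0.70, adjusted p = 0.000624). Ppara itself rose by 0.57. The carnitine shuttle genes Cpt1a (0.12) and Cpt2 (-0.09) and the hormone gene Fgf21 (-0.04) did not pass the test.

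**Figure D4:**
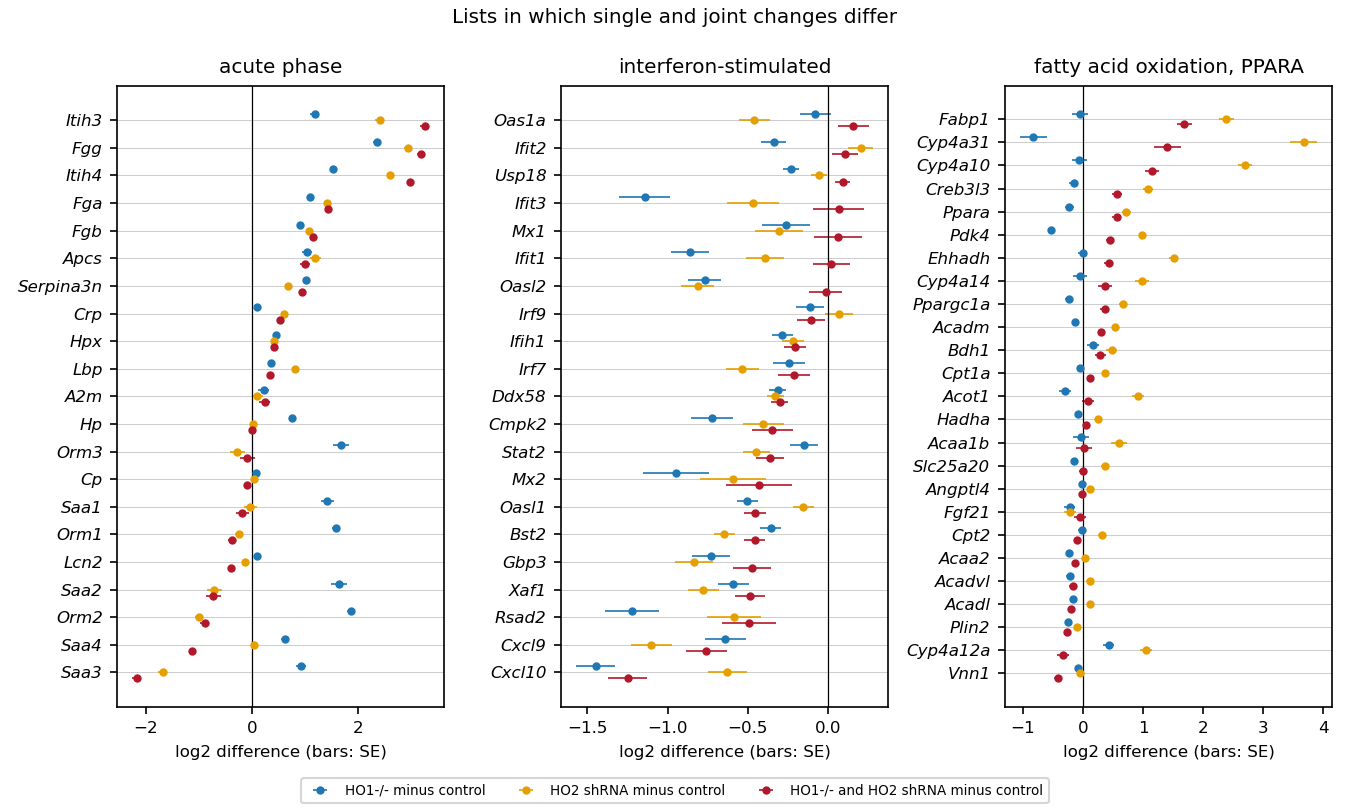
Log2 difference from control (horizontal axis; bars, SE) of each measured acute phase, interferon-stimulated and PPARA-related gene in HO1 knockout (blue), HO2 knockdown (orange) and the combined arrays (red). For Orm2 the combined point is at -0.89 beside 1.86 in HO1 knockout, and for Cyp4a10 it is at 1.15 beside 2.69 in HO2 knockdown.

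Core clock genes changed by modest amounts. The clock is a loop in which the activators CLOCK and ARNTL (BMAL1) switch on Per and Cry repressor genes and the nuclear receptor genes Nr1d1 and Nr1d2, which repress Arntl in turn. Of 19 measured genes 6 rose, 3 fell and 10 missed the threshold (median 0.09). In HO2 knockdown 12 were higher and 1 lower than control (median 0.22), and in HO1 knockout 1 and 1 (median -0.06). The activator genes Clock and Arntl did not differ from control past the threshold. Clock read 10.45 and 10.48 in control and 10.52 and 10.54 in the combined arrays (0.06, adjusted p = 0.496), and Arntl differed by 0.07. Npas2, the gene of the carbon monoxide-binding activator, had no value among the genes tested. Among the repressors Cry2 rose by 0.79 (SE 0.0694, adjusted p = 2.04e-07), from 9.05 and 9.01 to 9.89 and 9.75, and Per1 by 0.27 (adjusted p = 0.00305). Per2 rose by 0.28 (adjusted p = 0.0132), a call that was lost without either combined array (adjusted p = 0.0712 and 0.0782), and Per3 (0.13) and Cry1 (0.00) did not pass the test.

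Nr1d1, whose product REV-ERBα binds heme, read 9.87 and 9.81 in control, 9.71 and 9.92 in HO1 knockout, 11.20 and 11.14 in HO2 knockdown, and 10.56 and 10.56 in the combined arrays. The combined arrays lay between the groups, 0.72 above control (SE 0.0686, adjusted p = 5.76e-07) and below HO2 knockdown (-0.62, adjusted p = 6.17e-06). Its paralogue Nr1d2 differed from control by -0.04 without passing the test. Of the output factors, which bind D-box elements, Dbp rose by 0.56 (adjusted p = 0.000146) and Tef by 0.45 (adjusted p = 0.0013), Hlf differed by 0.21 (a call reached without control replicate 1, adjusted p = 0.0493) and Nfil3 by 0.09. Bhlhe40, a repressor that competes at E-boxes, read 10.96 and 11.09 in control, 10.83 and 10.51 in HO1 knockout, 11.15 and 11.17 in HO2 knockdown, and 10.33 and 10.10 in the combined arrays. It fell by 0.81 (SE 0.0903, adjusted p = 3.14e-06) and was lower in the combined arrays than in each other group. The casein kinase genes Csnk1e and Csnk1d, which mark PER proteins for decay, fell by 0.40 (adjusted p = 9.63e-06) and by 0.14 (adjusted p = 0.0442), and the latter call was lost without control replicate 2 (adjusted p = 0.272), combined replicate 2 (adjusted p = 0.348), HO1 knockout replicate 2 (adjusted p = 0.05) or either HO2 knockdown array (adjusted p = 0.0578 and 0.0577).

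Against HO2 knockdown, 8 of the 19 clock genes were lower in the combined arrays and 1 higher, beside 21.0% and 13% of all genes. The interaction passed for 4, all below the sum, namely Nr1d1 (-0.59, adjusted p = 0.00096), Bhlhe40 (-0.59, adjusted p = 0.00724), Clock (-0.31, adjusted p = 0.0206) and Cry2 (-0.32, adjusted p = 0.0433). Without HO1 knockout replicate 1, HO1 knockout replicate 2, HO2 knockdown replicate 1 or combined replicate 2 this count was 2, and there Clock and Cry2 missed the threshold. Clock also missed it without combined replicate 1 (adjusted p = 0.0799) and Cry2 without HO2 knockdown replicate 2 (adjusted p = 0.123).

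**Figure D5:**
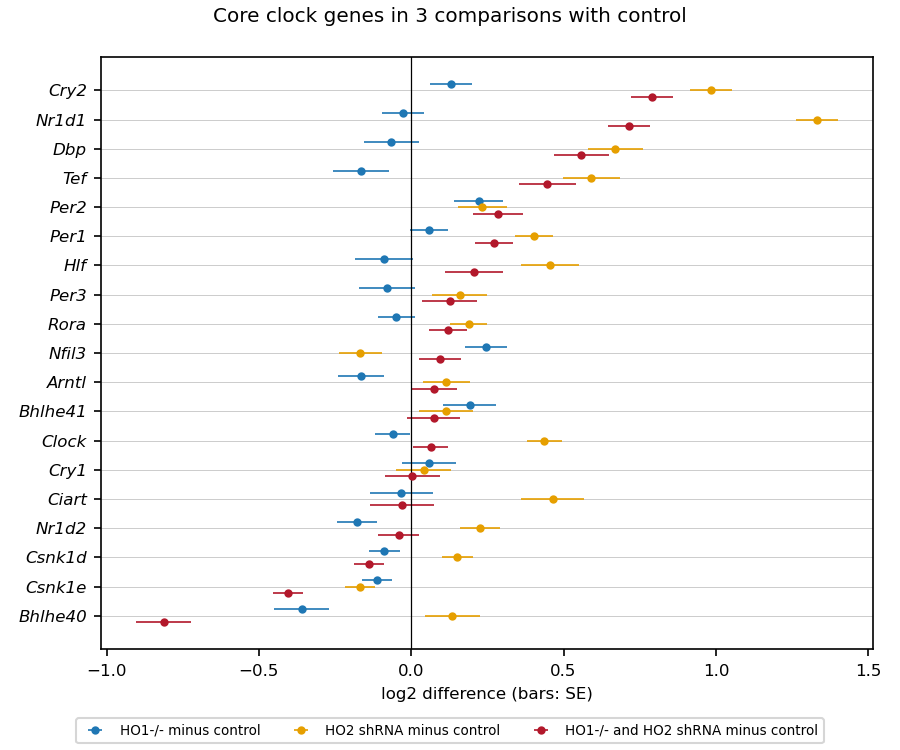
Log2 difference from control (horizontal axis; bars, SE) of the 19 core clock genes measured in HO1 knockout (blue), HO2 knockdown (orange) and the combined arrays (red), ordered by the combined value. The combined points run from -0.81 (Bhlhe40) to 0.79 (Cry2), and for Nr1d1 the point at 0.72 lies left of the HO2 knockdown point at 1.33.

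CLOCK and ARNTL bind the E-box CACGTG, which reads the same on both strands. It was in 2349 of 32851 windows (7.15%), and 2187 of 27025 genes had it in a window (8.09%). Among 16 clock genes with a window it was in 5, namely Per1, Cry1, Bhlhe41, Ciart and Tef. Those of Per1 and Tef, which rose, and of Ciart, which did not pass the test (-0.03), are shown with the E-box in capitals to set members with the same letters and other changes side by side. Per1 is at chr11:69098699-69098998, plus strand (1 of 2 windows of the gene), with the match starting at position -166 from the start used for this window. The gene itself begins upstream of this window, at 69095108.
Per1: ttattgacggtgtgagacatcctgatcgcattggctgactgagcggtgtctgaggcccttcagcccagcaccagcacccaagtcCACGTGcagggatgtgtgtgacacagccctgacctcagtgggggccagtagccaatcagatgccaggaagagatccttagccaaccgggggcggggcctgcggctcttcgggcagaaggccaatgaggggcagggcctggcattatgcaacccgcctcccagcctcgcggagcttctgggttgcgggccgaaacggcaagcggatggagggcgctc
Tef is at chr15:81802423-81802722, plus strand (1 of 2 windows), with the match starting at position -127.
Tef: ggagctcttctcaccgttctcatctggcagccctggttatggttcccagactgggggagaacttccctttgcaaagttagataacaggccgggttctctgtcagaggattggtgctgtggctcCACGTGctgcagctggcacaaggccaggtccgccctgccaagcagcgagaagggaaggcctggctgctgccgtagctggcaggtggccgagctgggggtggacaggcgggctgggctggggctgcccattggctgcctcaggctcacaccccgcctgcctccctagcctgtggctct
Ciart is at chr3:95882179-95882478, minus strand, with 3 matches starting at positions -116, -58 and -44.
Ciart: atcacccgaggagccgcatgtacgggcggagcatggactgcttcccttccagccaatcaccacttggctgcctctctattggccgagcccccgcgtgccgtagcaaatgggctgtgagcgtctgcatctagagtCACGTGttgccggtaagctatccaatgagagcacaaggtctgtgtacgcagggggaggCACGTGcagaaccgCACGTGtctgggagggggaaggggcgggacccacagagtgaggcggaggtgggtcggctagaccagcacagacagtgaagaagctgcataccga
These 3 genes were picked with their changes known, so the windows describe them and compare nothing.

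Genes whose liver transcripts are rhythmic counted 7 rises and 3 falls among 11 (median 0.55). Apart from Cyp7a1, the glycogen synthase gene Gys2 rose by 1.12, the glucocorticoid-induced gene Tsc22d3 by 0.96 and the deubiquitinase gene Usp2 by 0.80, while Noct (-0.97) and the mitotic inhibitor gene Wee1 (-0.58) fell. Glucocorticoid targets, relevant because every culture was pulsed with dexamethasone, counted 13 rises and 2 falls among 17 (median 0.69), with 1 fall when control replicate 2 or combined replicate 2 was left out. In HO2 knockdown 13 were higher and 1 lower than control (median 0.58), and in HO1 knockout 9 and 1 (median 0.16). Igfbp1, which binds insulin-like growth factors, read 11.45 and 11.43 in control and 13.17 and 13.17 in the combined arrays (1.73, adjusted p = 1.61e-13), the kinase gene Sgk1 rose by 0.97, Klf9 by 0.77 and the receptor chaperone gene Fkbp5 by 0.69. Cebpd fell by 0.85, and the metallothionein genes Mt1 (-0.02) and Mt2 (0.05) did not pass the test. Tat, Pck1, Tdo2 and Per1 of this list also stand on others above.

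The genes of heme synthesis, 8 in number, counted 1 rise and 3 falls (median -0.13). Alas1, the rate-limiting enzyme that heme represses, read 11.82 and 11.76 in control, 11.52 and 11.52 in HO1 knockout, 12.17 and 12.15 in HO2 knockdown, and 11.60 and 11.54 in the combined arrays. It fell by 0.22 against control (adjusted p = 0.00116) and did not differ from HO1 knockout past the threshold (0.05, adjusted p = 0.539). Alad, the next enzyme, fell by 0.42 (adjusted p = 8.11e-06) and Cpox fell by 0.29, while Fech, which inserts the iron, rose by 0.25. The calls of Cpox (without control replicate 2 or combined replicate 2) and Fech (without control replicate 1 or combined replicate 2) were lost with an array left out.

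Of 28 genes of heme and iron handling 8 rose and 7 fell (median -0.03). Slc40a1, the iron exporter ferroportin, read 10.76 and 10.87 in control, 10.74 and 10.65 in HO1 knockout, 11.43 and 11.47 in HO2 knockdown, and 11.96 and 11.94 in the combined arrays, which were the highest (1.13 above control, SE 0.054, adjusted p = 1.22e-10). Of 9 genes of iron uptake and export 3 rose, the others being Tfr2 (0.37) and Slc39a14 (0.27), and 4 fell, while Trf (-0.03) and Cp (-0.09) missed the threshold. The falls were in the transferrin receptor gene Tfrc (-0.49), the ferrous iron transporter gene Slc11a2 (-0.57) and the ferrireductase genes Steap3 (-0.37) and Steap4 (-2.38). Steap4 read 11.82 and 11.83 in control, 12.06 and 12.002 in HO1 knockout, 10.62 and 10.61 in HO2 knockdown, and 9.42 and 9.47 in the combined arrays. Of the ferritin chains Ftl1 rose by 0.54 (adjusted p = 0.0217, lost without control replicate 1, control replicate 2 or combined replicate 2, at 0.0634, 0.0536 and 0.295) and Fth1 by 0.13. Hamp, which encodes hepcidin, the hormone that degrades ferroportin, fell by 0.26 (adjusted p = 0.00106). The heme scavenger gene Hpx rose by 0.41, the haptoglobin gene Hp did not pass the test (-0.00), nor did the heme transporter genes Slc48a1 (-0.03) and Flvcr1 (-0.19), and Slc46a1 fell by 0.37.

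NRF2 is a transcription factor that oxidative stress activates and that also induces Hmox1. On its list 3 of 18 genes were higher and 6 lower (median -0.10, with 10 lower after a further quantile normalization and 1 higher without control replicate 1). Nqo1, a quinone reductase and textbook target, read 8.38 and 8.52 in control and 7.77 and 7.48 in the combined arrays (-0.82, adjusted p = 2.39e-05). Srxn1 (-0.70), the cystine importer gene Slc7a11 (-0.64) and Gclc, the first enzyme of glutathione synthesis (-0.40), fell too, while Nfe2l2 (-0.09), Keap1 (-0.04) and the heme-sensing repressor gene Bach1 (0.01) did not pass the test. Those that rose were Gstm1 (0.47), Gpx1 (0.20) and Me1 (0.12).

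Of 23 genes of the integrated stress and unfolded protein responses 14 rose and 2 fell (median 0.23, with 0 lower without control replicate 2 or combined replicate 1), by at most 0.49 (Atf3). Of 12 p53 targets 4 rose, led by Btg2 (0.78), and 4 fell, led by Eda2r (-0.63) and Mdm2 (-0.55). Of 15 hypoxia genes 4 rose, led by Ndrg1 (1.30), and 6 fell, led by the oxygen sensor gene Egln3 (-0.96). Cyclic GMP is the messenger made by soluble guanylate cyclase, and of 8 genes on the nitric oxide and cyclic GMP list 0 rose and 4 fell (median -0.29, with 1 rise without control replicate 1), namely Nos2, the cyclase subunit genes Gucy1b1 (-0.64) and Gucy1a2 (-0.60), and Prkg1 (-0.40), whose call was lost without combined replicate 1 (adjusted p = 0.0718). Cholesterol synthesis had 3 rises and 8 falls among 16 (median -0.18, with 1 rise without combined replicate 1 and 5 falls without combined replicate 2), the largest fall in Sc5d (-0.75) and then Dhcr7 (-0.56), and the regulator gene Srebf2 fell by 0.51. Lipogenesis had 3 rises and 2 falls among 13 (median 0.01, with 1 fall without either combined array).

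The combined arrays differed in the same direction from control and from both single perturbations for 315 genes called higher (1.58% of those tested) and 1023 called lower (5.13%). Ranked by the smallest of the 3 differences, the higher ones included Cd74, Clec7a, Cyp7a1 and H2-Aa, described above. Ifi44l, an interferon-induced gene, read 6.96 and 6.73 in control, 7.91 and 7.87 in HO1 knockout, 6.55 and 6.77 in HO2 knockdown, and 9.65 and 9.66 in the combined arrays (2.81 above control, adjusted p = 5.5e-12, and 1.76 above HO1 knockout). Slfn1, of the schlafen family, rose by 2.24, Atp6v0d2, a subunit of the vacuolar proton pump, by 3.83, and Rgs2, a brake on G protein signalling, by 2.12. The lower ones included Cxcl5, H2-M2, Spon1, Vnn3, Steap4 and Saa4. Rgs4, a relative of Rgs2, read 9.67 and 9.79 in control, 9.62 and 9.38 in HO1 knockout, 9.18 and 9.001 in HO2 knockdown, and 7.69 and 7.59 in the combined arrays (-2.09, adjusted p = 5.24e-11). Ppbp, a platelet chemokine gene, fell by 1.81. These ranks were chosen on the values given, so they describe the genes and test nothing further.

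Genes near Hmox1 can carry alleles of the strain in which a knockout was made. Of 107 genes that start within 5 Mb of Hmox1 on chromosome 8, 9 rose and 18 fell in the combined against the control arrays (median -0.01), shares near those of all genes. The counts ran with 14 higher without control replicate 1, 5 higher without combined replicate 1 and 9 lower without combined replicate 2. The largest rise was Lrrc25 (1.37), a gene of myeloid cells that was also higher in HO1 knockout (1.70), and the largest fall was Lsm4 (-0.51).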

How the data were processed

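Each of the 8 whole-transcript arrays received 300 ng of total RNA from cultured mouse hepatocytes. The deposited values are on the log2 scale, and per the submitters' processing notes the robust multi-array average (RMA) of the package affy (R 2.15.0) gave 1 value for each probe set. For the chip definition and genome build, nothing is given in the sources used here. RMA sets all arrays to a common distribution, so a shift of total RNA cannot be seen (array medians 7.61 to 7.70), and background signal makes folds of dim genes too small. No depth applies to arrays, and 2 arrays a group limit the precision. An exact permutation test of 2 against 2 arrays cannot go below p = 0.333, so all tests borrow spread across genes and groups.

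Symbols came from the platform table, which gave 1 symbol to 21640 probe sets, several to 1321 and none to 11799. The brightest probe set was kept for each of 954 genes with several, which left 19937 genes, 19855 of them matched to RefSeq (GRCm38.p6). The log2 values were fitted with limma 3.58.1 (R 4.3.3) as 4 group means over 8 arrays, with 4 residual and 11.2 prior degrees of freedom, a mean-variance trend, two-sided tests and Benjamini-Hochberg adjustment over all genes, and genes were called at an adjusted p under 0.05. SE is the moderated standard error, 0.0362 to 0.292 over the named genes in the main comparison. The fit was tested on simulated data.

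Of 623 entries in 33 gene lists 569 were measured. The comparison, its lists and its naming rule were chosen with earlier results of these data known. Named genes are the heme oxygenase and biliverdin reductase genes, the core clock genes, the 15 largest rises and 15 largest falls, the 5 largest differences in each list, the 10 largest interactions each way, and the 8 largest each way that exceed all other groups, with predicted genes and small RNAs left out. Members of a list may be named too, as may genes described beside a list, chosen after their values were seen. Genes without a value in the table were not analysed here. Alternatives changed, one at a time, the empirical Bayes step, weights of arrays, centring or quantiles, the filter on dim genes, the probe set kept, the threshold, a block for the replicate number, and the arrays used (each left out in turn).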

Additional observations from a re-analysis of the deposited data

Results flagged for a closer look

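For 26 genes the effect of the HO2 hairpin differed between HO1-/- and HO1+/+ cells by a limma interaction test (adjusted p under 0.05 over all genes), out of 2442 of 19937 genes (12.2%) that did. They are the 10 largest in each direction and those of the heme oxygenase and core clock genes that passed. Values are the joint log2 change minus the sum of the single ones. Hmox2 signal was not equally low in both groups with the HO2 hairpin, and whether this has a part in these values was not tested.

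Above the sum, 6 of the 10 largest were interferon-induced, with Ifi44l at 1.95, Ifit3 at 1.67, Ifi203 at 1.65, Oasl2 at 1.57, Ifit3b at 1.55 and Slfn1 at 1.47. These genes were picked for their size, so the count describes the ranking and tests nothing. Ifit3b lost its call without HO1 knockout replicate 1, HO2 knockdown replicate 1 or combined replicate 1 (adjusted p = 0.108, 0.123 and 0.105). Immune cell genes were the class II chaperone Cd74 at 1.62, the dectin-1 gene Clec7a at 1.57 and the ADP receptor gene P2ry13 at 1.43. The kallikrein gene Klk1b11 was at 1.43, Hmox2 at 0.84 and Hmox1 at 0.34.

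Below the sum, the largest value was that of Arg1 at -3.06. The chemokine gene Ccl12 (-2.27), Ms4a7 (-2.14) and the ribonuclease gene Rnase2a (-1.98) had higher signals in HO1 knockout than in the combined arrays, with Rnase2a at 12.65 and 12.65 there and 10.52 and 10.39 in the combined arrays. Lrg1, an acute phase glycoprotein gene, was at -2.10, as was the fibrinogen gene Fgg at -2.10. The matrix proteoglycan gene Prelp was at -2.07, the fatty acid translocase gene Cd36 at -1.85, the pantetheinase gene Vnn3 at -1.81 and the fatty acid hydroxylase gene Cyp4a12a at -1.81. Of the clock genes, Nr1d1 was at -0.59, Bhlhe40 at -0.59, Cry2 at -0.32 and Clock at -0.31.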

How the results depend on the processing

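Between the combined and control arrays 5964 genes were called, 4250 to 6525 with 1 array left out, and 1988 when tested against a fold of 1.2. For the interaction the count was 2442, 1359 with no mean-variance trend, 1065 at an adjusted p under 0.01, 315 against a fold of 1.2, and 1301 to 4744 with 1 array left out. The high end came without control replicate 2 and the low end without HO2 knockdown replicate 1, and counts were also over 1.5 times lower without HO1 knockout replicate 1 (1526), combined replicate 1 (1365) or combined replicate 2 (1349). For combined against HO1 knockout it was 4587, 1310 against a fold of 1.2, and 3170 to 5273 with 1 array left out. For combined against HO2 knockdown it was 6775, 4283 at an adjusted p under 0.01, 1181 against a fold of 1.2, and 3827 to 8253 with 1 array left out, with the low end without HO2 knockdown replicate 1 and also over 1.5 times lower without combined replicate 1 (4485) or combined replicate 2 (4072). The share of calls that were higher moved with centring on array medians from 38.2% to 24.1% against HO2 knockdown and from 38.2% to 27.1% for the interaction, where it was 52.6% without control replicate 2, and against control it moved from 38.8% to 49.8% when tested against a fold of 1.2. With the replicate number as a block the counts were 5871, 2327, 4491 and 6564 in the order above, but deviations of same-numbered arrays correlated between -0.261 and 0.122, so the numbers show no pairing. Of the named genes' values against control, 1653 of those with 1 array left out kept the call or the lack of one, 39 lost the call and 12 gained one. Under other settings these counts were 2473, 56 and 14. Called values kept their direction, and a change of direction in a value not called either way was not counted. The interaction of Idi1 turned from -0.56 to 0.31 (adjusted p = 0.272) with the most variable probe set, which is another probe set of the gene. Dim genes near background and differences under about 0.2 are what these arrays resolve least.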
